A study of Ovis aries with 20 samples.

Results

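Neuroendocrine cells of the airway were followed through 9 genes in RNA sequencing counts of sheep trachea. The genes were taken by their symbols: the transcription factors INSM1 and NEUROD1, the granule proteins CHGA, CHGB, SCG2 and SCG5, the vesicle protein SYP, the amine enzyme DDC and the peptide GRP. All 9 were found among the 24478 genes of the count tables, and all 9 were among the 20097 that passed a filter on low counts. The tissue came from the trachea, labelled epithelial, of healthy sheep (WT) and of sheep with cystic fibrosis (CF), in which the chloride channel CFTR is lost. Samples were taken at days 65, 80, 100, 120 and 147, the last being birth, with 2 samples for each genotype and age and 20 in all. The labels name no CFTR allele, strain or sex, and state no treatment for either genotype. Both WT day 100 samples carry the same identifier, as do both CF day 147 samples, so each of these pairs may be 1 animal, and p-values measure only the spread between samples. Another identifier is shared by WT day 65 replicate 2 and CF day 100 replicate 2, whose titles differ in genotype and age.

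Pulmonary neuroendocrine cells are rare epithelial cells that sense the airway's content and release peptides and amines from dense-core granules. They are among the earliest cells to differentiate in the fetal airway epithelium. Their differentiation runs through transcription factors such as INSM1 and NEUROD1, and Notch signalling holds neighbouring cells back from the same fate. Granins such as CHGA and CHGB pack hormones into the granules, and most of them are also made by neurons and by endocrine glands. The tissue held the wall of the airway, and in such bulk RNA fewer cells of a type and less RNA per cell cannot be told apart.

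Total counts per sample ran from 42372433 to 87651829, and levels are given as depth-scaled counts (CPM, on TMM library sizes), in which 1 count was worth between 0.0114 and 0.0231 CPM. The epithelial markers EPCAM (58.3 to 305 CPM) and NKX2-1 (7.17 to 83.7 CPM) were present in every library. Libraries at days 65 and 80 also held other tissue: TG, the thyroid hormone precursor, reached 106018 CPM in WT day 80 replicate 2, PRSS16 of the thymus reached 125 CPM in WT day 65 replicate 2 and 77.3 CPM in WT day 80 replicate 2, ACTA1 of skeletal muscle reached 5766 CPM in CF day 80 replicate 1, and ALB of the liver reached 4683 CPM in CF day 65 replicate 2. PTH, the defining hormone of the parathyroid, had 0 counts in all 20 libraries. Results that change without these 4 libraries are given both ways.

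Per kilobase of exon, the members spanned a wide range of abundance. SCG5 stood highest, with a median of 19.2 CPM per kilobase over the 20 libraries, above CHGA (6.28) in 18 of them. CHGA in turn was above DDC (1.35) in 20 of 20, and DDC was above CHGB in 16. The next 5 lay closer: CHGB had 0.685, SYP 0.600, INSM1 0.460, GRP 0.345 and SCG2 0.240 CPM per kilobase. The order of neighbours from CHGB down to SCG2 held in only 10 to 12 of 20 libraries, so it was not stable across libraries of different ages. The levels of these neighbours were not tested against one another. NEUROD1, at 0.0341 CPM per kilobase, was below SCG2 in 18 of 20. The spread among samples, after the group means, differed too: the biological coefficient of variation was 0.333 for INSM1, 0.396 for SCG5 and 0.545 for CHGA, against a median of 0.395 over all tested genes, and 1.07 for NEUROD1.

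Counts behind the low members were small. NEUROD1 had 0 to 26 counts per library, was at 0 in 4 libraries and under 10 counts in 11. GRP had 2 to 48 counts and was under 10 in 6 libraries, and SCG2 had 8 to 160. INSM1 had 34 to 258 counts. All 20 INSM1 counts and all 20 NEUROD1 counts were even numbers, as were 18 of 20 for GRP and for CHGB and 19 of 20 for SCG2. Over all genes, the share of even numbers among counts of 1 to 20 was 70.7% to 85.3% by library, so the number of independent fragments may be smaller than the count.

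**Figure D1:**
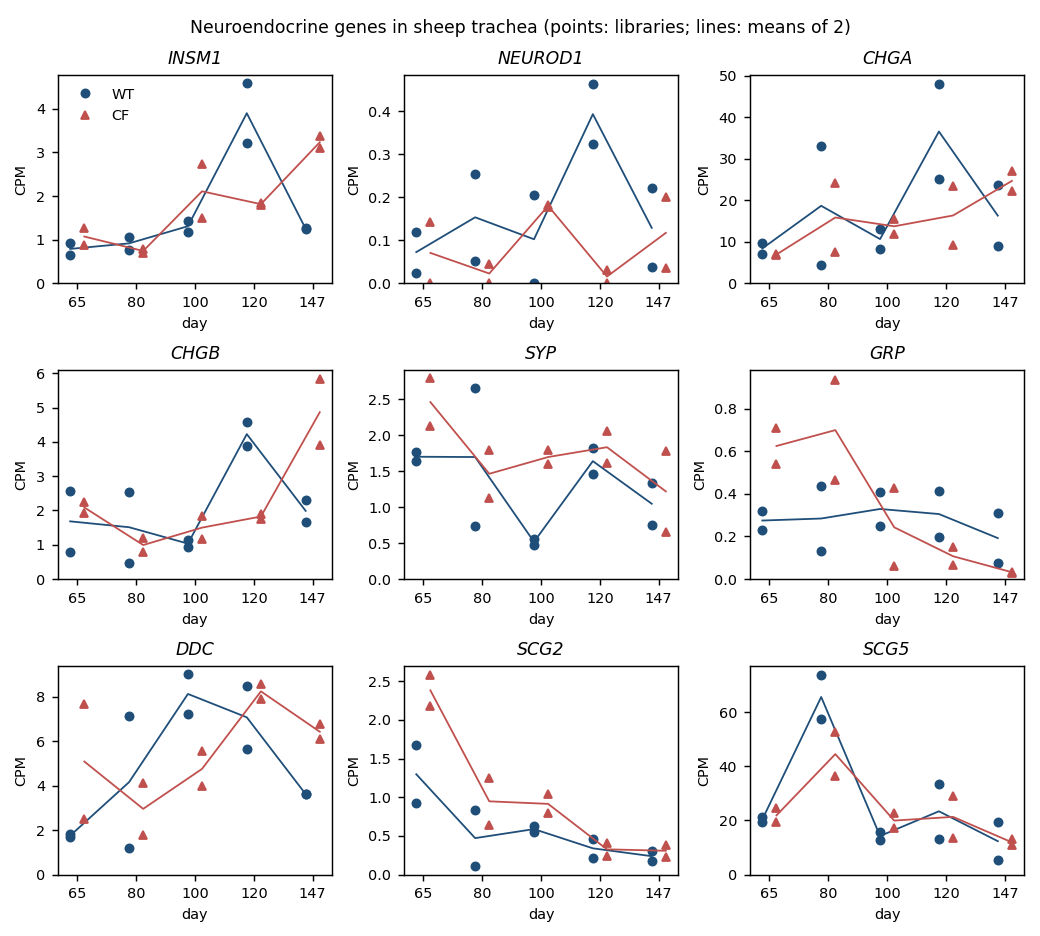
CPM of the 9 genes by age in days (ages evenly spaced), with a point for each library (circles WT, triangles CF) and lines through the means of 2 libraries. INSM1 was highest in WT at day 120 and in CF at day 147, SCG2 was highest at day 65 in both genotypes, SCG5 was highest at day 80, and GRP in CF ran from 0.935 CPM at most to 0.0286 CPM at birth.

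INSM1 is a zinc-finger factor that drives the neuroendocrine program, and the count tables place it on chromosome 13 (13:38922440-38925302, plus strand; the sources used here do not name the genome build). In WT, INSM1 stood at 0.659 and 0.922 CPM on day 65, 0.765 and 1.07 on day 80, 1.18 and 1.44 on day 100, 4.58 and 3.21 on day 120, and 1.27 and 1.24 at birth. In CF it stood at 1.28 and 0.870 on day 65, 0.786 and 0.701 on day 80, 1.49 and 2.73 on day 100, 1.79 and 1.84 on day 120, and 3.09 and 3.37 at birth. Within each genotype, the 4 late libraries (days 120 and 147) all lay above the 4 early ones (days 65 and 80), as they did for 5.34% of all genes in WT and 9.41% in CF. The 2 WT libraries of day 120 and the 2 CF libraries of birth were the highest of the 20.

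Late was compared with early gestation, taking the mean of both genotypes, to ask how the members changed with development. INSM1 rose by 1.40 ± 0.22 on the log2 scale (SE, n = 8 libraries in each period; edgeR quasi-likelihood test, adjusted p = 0.000624). Its rise was 1.37 ± 0.31 in WT (adjusted p = 0.0163) and 1.44 ± 0.31 in CF (adjusted p = 0.0110). In all, 4 of the 9 members passed the threshold of an adjusted p of 0.05, against 24.2% of all tested genes. INSM1 was higher, as were 11.5% of genes, and SCG2, SCG5 and GRP were lower, as were 12.7%. In WT alone 1 member passed, against 10.3% of genes, and in CF alone 3 members did (INSM1, SCG2 and GRP), against 11.2%. The rise of INSM1 over both genotypes kept its call in all 10 other settings and in all 20 fits that each left out 1 library, with a range of 1.30 to 1.49 and adjusted p of at most 0.00914. Within WT the call was lost without WT day 65 replicate 1 (adjusted p = 0.0809) or WT day 120 replicate 1 (0.0577), and without the 4 libraries holding other tissue (0.0562). Within CF it was lost without CF day 65 replicate 2 (0.0643), without those 4 libraries (0.103) and with samples of a shared identifier summed (0.0576), at fold changes between 1.23 and 1.63 in these 6 cases.

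By likeness of pattern over the 20 libraries, out of 13257 candidates, genes close to INSM1 were SUCNR1, the succinate receptor (Pearson r of the log2 CPM = 0.840, Spearman rho = 0.809), and GLT6D1 (r = 0.831, rho = 0.911). These are descriptions in which the points share libraries and ages.

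NEUROD1, a basic helix-loop-helix factor of neurons and endocrine cells, lies on chromosome 2 (2:126992828-126996922, plus strand). Its counts in WT were 2 and 6 on day 65, 14 and 4 on day 80, 0 and 18 on day 100, 26 and 18 on day 120, and 2 and 10 at birth. In CF they were 10 and 0, 2 and 0, 12 and 12, 0 and 2, and 2 and 14 at the same ages. A count of 0 allows up to 3 counts, between 0.0342 and 0.0693 CPM by library, a limit that covers counting error only. If both reads of a pair were counted, as the even numbers may mean, the limit is 6 counts. The late libraries ran from 0 to 0.462 CPM with a median of 0.119, and the early ones from 0 to 0.255 with a median of 0.0492. The difference of 0.64 ± 1.00 on the log2 scale did not pass (adjusted p = 0.707), and a change of NEUROD1 was not detected.

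Among the granins, SCG2 (secretogranin II, a granule protein that is also the precursor of a neuropeptide of neurons) fell with age. SCG2 lies on chromosome 2 (2:224780332-224785939, minus strand). In WT, SCG2 went from 1.67 and 0.922 CPM on day 65 and 0.838 and 0.104 on day 80, by way of 0.628 and 0.547 on day 100, to 0.462 and 0.216 on day 120 and 0.298 and 0.177 at birth. In CF it went from 2.19 and 2.58 on day 65 and 0.647 and 1.25 on day 80, by way of 0.791 and 1.04 on day 100, to 0.410 and 0.242 on day 120 and 0.387 and 0.228 at birth. In CF all 4 early libraries lay above all 4 late ones, as for 9.69% of genes, while in WT the day 80 library with thyroid tissue was the lowest of all. The fall was 1.85 ± 0.41 on the log2 scale over both genotypes (SE, adjusted p = 0.00620 by edgeR), and it kept its call in every alternative, with fold changes from -2.21 to -1.28. SCG2 in WT alone, at -1.45 ± 0.58, did not pass (adjusted p = 0.135), but it did without WT day 80 replicate 2, the library with thyroid tissue (-1.87, adjusted p = 0.0332). In CF it fell by 2.24 ± 0.59 (adjusted p = 0.0275). That call was lost in 7 of the 20 fits that each left out 1 library, at fold changes from -2.45 to -1.95, and with samples of a shared identifier summed (-2.25, adjusted p = 0.135). Markers of autonomic ganglion neurons moved the same way: 13 of 17 fell and none rose, against 12.7% and 11.5% of all genes. Their summed level ran from 25.3 to 83.0 CPM in the early libraries and from 8.68 to 24.8 CPM in the late ones. The part of these neurons in the fall of SCG2 was not tested. The genes most like SCG2 were LRRN3 (r = 0.881), EPHA7 (r = 0.879) and TRHDE (r = 0.872).

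**Figure D2:**
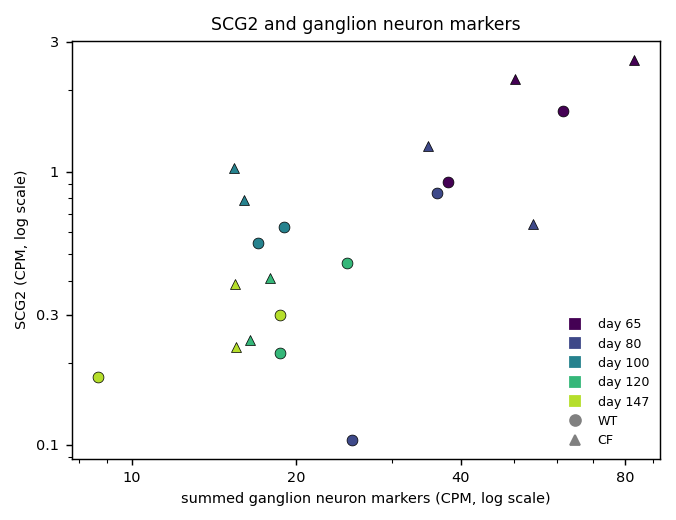
SCG2 against the summed CPM of 17 ganglion neuron markers, both on a log scale, with a point per library (circles WT, triangles CF, colour for age). The libraries of days 65 and 80 hold the higher sums of neuron markers, 25.3 to 83.0 CPM.

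SCG5, also called 7B2, is a chaperone of the prohormone convertase PCSK2, and lies on chromosome 7 (7:26989142-27044635, minus strand). In WT its level was 21.4 and 19.3 CPM on day 65, 57.4 and 73.7 on day 80, 15.6 and 12.9 on day 100, 13.3 and 33.4 on day 120, and 5.2 and 19.4 at birth. In CF it was 24.4 and 19.3 on day 65, 36.4 and 52.6 on day 80, 17.0 and 22.8 on day 100, 29.0 and 13.6 on day 120, and 10.8 and 13.0 at birth. The 4 libraries of day 80 were the highest of the 20. WT day 80 replicate 1 and CF day 80 replicate 2, which are not among the 4 libraries holding other tissue, were the next highest after the library with thyroid tissue. SCG5 fell by 1.04 ± 0.28 between early and late gestation (adjusted p = 0.0164). The call was lost, at a similar fold, without the 4 libraries holding other tissue (-1.11, adjusted p = 0.0907) and with samples of a shared identifier summed (-1.01, adjusted p = 0.0631). An F test for any difference among the 5 ages passed for 3 of the 9 members, against 17.9% of all genes: INSM1 (adjusted p = 0.00726), SCG5 (0.0110) and SCG2 (0.0219).

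CHGA, chromogranin A, the granin most used as a marker of endocrine cells, lies on chromosome 18 (18:56428370-56441509, plus strand), and CHGB, chromogranin B, on chromosome 13 (13:47258685-47280084, plus strand). CHGA ran from 4.37 CPM (median 7.34) to 33.0 in the early libraries, and from 9.05 CPM (median 23.5) to 48.1 in the late ones. CHGB ran from 0.470 CPM (median 1.56) to 2.56 early, and from 1.68 CPM (median 3.09) to 5.82 late. The periods overlapped for both genes, and WT day 80 held the widest gap between replicates, with CHGA at 33.0 and 4.37 CPM and CHGB at 2.55 and 0.470. Neither passed by edgeR: CHGA differed by 0.95 ± 0.40 (adjusted p = 0.108) and CHGB by 0.96 ± 0.35 (adjusted p = 0.0628). Leaving out WT day 80 replicate 1 alone brought both past the threshold (CHGA 1.51, adjusted p = 0.00651; CHGB 1.41, adjusted p = 0.00364), and leaving out WT day 65 replicate 1 did so for CHGB (1.22, adjusted p = 0.0313). On all libraries DESeq2 called both CHGA (0.96, adjusted p = 0.0457) and CHGB (0.98, adjusted p = 0.0162), and limma-voom called CHGB (1.13, adjusted p = 0.0279).

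CHGA and CHGB also varied together from library to library. Of the 28 pairs among the 8 members other than NEUROD1, theirs had the highest correlation over the 20 libraries (Pearson r = 0.657, permutation p = 0.00177, adjusted p = 0.0496; Spearman rho = 0.546, permutation p = 0.0142, adjusted p = 0.115). It was the only pair past the threshold by Pearson, and no pair was by Spearman. Without the 2 libraries farthest from the median the r was 0.490, and within genotypes it was 0.800 in WT and 0.428 in CF. In 8 of the 10 groups the replicate with more CHGA also had more CHGB. The lowest correlation was that of INSM1 with GRP (r = -0.598, permutation p = 0.00573, adjusted p = 0.0788; rho = -0.592, permutation p = 0.00685, adjusted p = 0.115). It was -0.939 in CF and -0.0250 in WT. The permutations moved libraries freely across ages, genotypes and shared identifiers, so their p-values do not set apart a shared change with age.

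The members other than NEUROD1 were also set against a property of the libraries, the slope of a library's log2 CPM deviations on log2 gene length, which is negative where short genes read relatively high. CHGA was lower where this slope was higher (r = -0.580, permutation p = 0.00826, adjusted p = 0.0661 over 8 genes; rho = -0.520, permutation p = 0.0200, adjusted p = 0.160). The r was -0.626 in WT and -0.487 in CF, and -0.495 without the 2 libraries farthest from the median slope. In 7 of 10 groups the replicate with the lower slope had more CHGA. None of the 8 relations passed after adjustment, and the part of the slope in the CHGA levels was not tested.

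**Figure D3:**
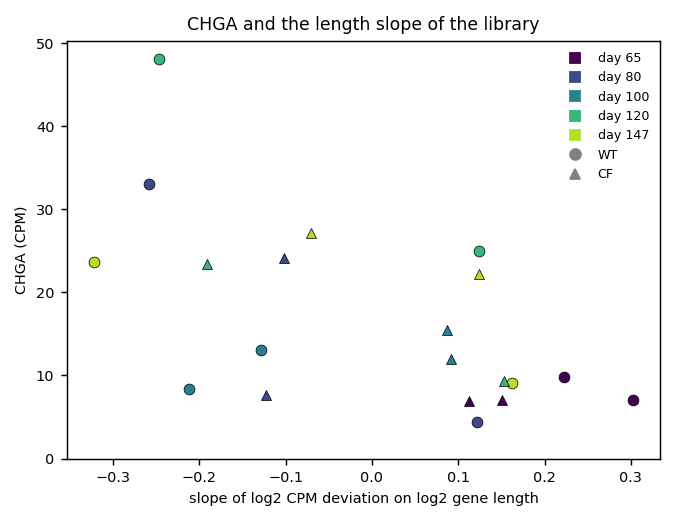
CHGA in CPM against the slope of log2 CPM deviation on log2 gene length, with a point per library (circles WT, triangles CF, colour for age). The 2 highest CHGA levels, 48.1 and 33.0 CPM, were in WT libraries with negative slopes, and the r over 20 libraries was -0.580.

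SYP, synaptophysin, a membrane protein of small vesicles, lies on chromosome X (X:52674558-52685643, plus strand). It ran from 0.731 CPM (median 1.78) to 2.79 in the early libraries and from 0.650 CPM (median 1.53) to 2.05 in the late ones. The difference was -0.36 ± 0.31 (adjusted p = 0.459). DDC, the decarboxylase that makes serotonin and dopamine, lies on chromosome 4 (4:5272490-5377534, plus strand). It ran from 1.18 CPM (median 2.15) to 7.67 early and from 3.61 CPM (median 6.43) to 8.58 late, and the periods overlapped through 3 early libraries, WT day 80 replicate 1 at 7.14 CPM, CF day 65 replicate 2 at 7.67 CPM and CF day 80 replicate 1 at 4.14 CPM. DDC differed by 0.91 ± 0.35 (adjusted p = 0.0792 by edgeR), while limma-voom (1.15, adjusted p = 0.0330) and DESeq2 (0.93, adjusted p = 0.0284) called it. It also passed by edgeR without WT day 80 replicate 1 (1.39, adjusted p = 0.00347), without CF day 65 replicate 2 (1.16, adjusted p = 0.0427) and without the 4 libraries holding other tissue (1.16, adjusted p = 0.00865).

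GRP, gastrin-releasing peptide, a bombesin-like peptide of fetal airway neuroendocrine cells, lies on chromosome 23 (23:58392313-58405442, plus strand). Its counts in WT were 18 and 16 on day 65, 24 and 10 on day 80, 22 and 22 on day 100, 11 and 23 on day 120, and 4 and 14 at birth, or 0.0745 to 0.437 CPM. In CF they were 38 and 44, 20 and 48, 28 and 4, 8 and 4, and 2 and 2, or 0.935 CPM at most on day 80 and 0.0352 and 0.0286 CPM at birth. In CF the early libraries all lay above the late ones (9.69% of genes), while in WT both periods covered nearly the same range. GRP fell by 1.83 ± 0.52 over both genotypes (adjusted p = 0.0218) and by 3.45 ± 0.78 in CF (adjusted p = 0.0134), and its difference in WT was -0.20 ± 0.70 (adjusted p = 0.897). The difference between these developments was -3.25 ± 1.03 (adjusted p = 0.976), so no difference between genotypes was shown. No gene at all passed that test (0%), and GRP was the only member under an unadjusted p of 0.05, against 796 of the 20097 tested genes. The call of GRP over both genotypes was lost in 6 of the 20 fits that each left out 1 library (WT day 80 replicate 1, WT day 120 replicate 1, CF day 80 replicate 2, CF day 120 replicate 2 and either CF day 147 replicate, at -1.86 to -1.52, adjusted p 0.0501 to 0.0637), without the 4 libraries holding other tissue (-1.97, adjusted p = 0.0759) and with samples of a shared identifier summed (-1.81, adjusted p = 0.0716). Its call in CF was lost without CF day 120 replicate 2 or either CF day 147 replicate (-3.52 to -3.21, adjusted p 0.0691 to 0.0763), without those 4 libraries (-3.56, adjusted p = 0.0709) and with the samples summed (-3.45, adjusted p = 0.0945). The genes most like GRP were the centromere proteins CENPM (r = 0.845) and CENPW (r = 0.820) and the exon junction protein MAGOHB (r = 0.834). GRPR, the receptor of GRP, had 0.0729 to 0.355 CPM early and 0.0746 to 0.879 CPM late and did not pass (0.38 ± 0.48, adjusted p = 0.634).

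**Figure D4:**
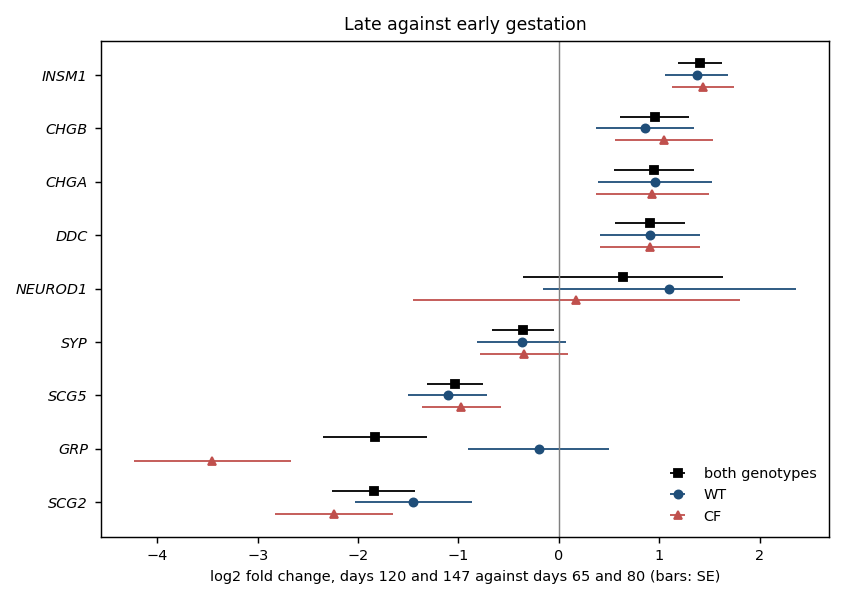
Log2 fold change of days 120 and 147 against days 65 and 80 for each gene, over both genotypes (squares), in WT (circles) and in CF (triangles), with bars of 1 SE. INSM1 lies at 1.37 to 1.44 in all 3, and GRP lies at -0.20 in WT and -3.45 in CF.

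The series is about early deficits in CF, and CF was first compared with WT as the average over 5 ages. None of the 9 members passed the edgeR test, against 0.766% of all genes. None had an unadjusted p under 0.05, against 2254 of the 20097 tested genes, and DESeq2 and limma-voom called none either. SYP was 0.48 ± 0.28 higher in CF on the log2 scale (adjusted p = 0.562) and SCG2 0.57 ± 0.36 higher (adjusted p = 0.610). INSM1 differed by 0.22 ± 0.19 and DDC by 0.26 ± 0.31. CHGA at -0.14 ± 0.36, CHGB at 0.06 ± 0.31 and SCG5 at -0.03 ± 0.25 lay near 0. GRP differed by -0.39 ± 0.44 and NEUROD1 by -1.28 ± 0.84. The 10 libraries of each genotype overlapped for all 9 genes, and a p that misses the threshold does not show that their levels were alike.

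At single ages no member passed either, with 2 libraries against 2. Of all genes, day 65 called 0.00995%, day 80 0%, day 100 1.46%, day 120 0% and birth 0.0945%. In the same order, an unadjusted p under 0.05 was reached by 0, 0, 1, 1 and 2 members. It was reached by 682, 1924, 2479, 279 and 1592 of the 20097 tested genes. At day 120, INSM1 in CF was lower than in WT by -1.10 ± 0.44 (adjusted p = 1), and at birth it was higher by 1.37 ± 0.44 (adjusted p = 0.375), with no overlap of the libraries at either age. DESeq2 called INSM1 at birth (adjusted p = 0.0262). Both CF libraries at birth share an identifier, and with their counts summed the adjusted p was 1. GRP at birth differed by -2.51 ± 1.13 (adjusted p = 0.609), on 2 counts in each CF library. SYP at day 100 was 1.6 and 1.79 CPM in CF and 0.554 and 0.479 CPM in WT, a difference of 1.71 ± 0.64 (adjusted p = 0.274), and the WT pair there also shares an identifier.

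Separation of the libraries at single ages was common among all genes. At day 65, 4 members were higher in both CF libraries than in both WT libraries (SYP, GRP, DDC and SCG2; 23.8% of all genes) and CHGA was lower (23.7%). At day 80, GRP was higher (11.5%) and NEUROD1 and SCG5 lower (10.8%). At day 100, 5 members were higher (INSM1, CHGB, SYP, SCG2 and SCG5), when 40.5% of genes were, and DDC was lower (30%). At day 120, 5 were lower (INSM1, NEUROD1, CHGA, CHGB and GRP) and none higher, when 7.61% of genes were lower and 8.91% higher, and at birth INSM1, CHGB and DDC were higher (15.6%) and GRP lower (15.6%). An F test that the genotype difference varies with age passed for no member, against 0.0697% of genes, with INSM1 nearest (adjusted p = 0.487).

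**Figure D5:**
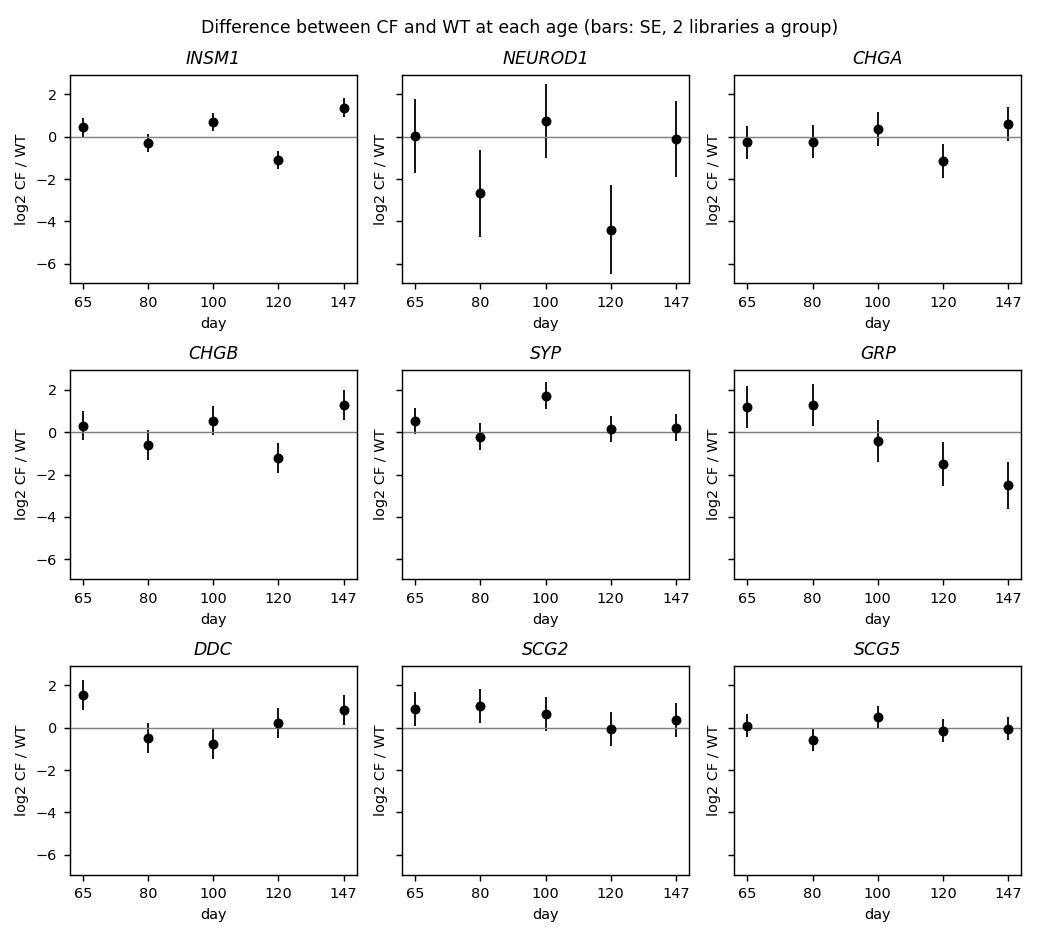
Log2 ratio of CF to WT at each age in days (ages evenly spaced) for each gene, with bars of 1 SE and 2 libraries per group. INSM1 lies at -1.10 on day 120 and at 1.37 at birth, and GRP lies at 1.18 on day 65 and at -2.51 at birth; none of these passed after adjustment.

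Other genes of the neuroendocrine program were described from lists of related function, by late against early gestation over both genotypes and beside a median of -0.02 over all tested genes. The counts of each list stand beside 11.5% of all tested genes called higher and 12.7% called lower. Of 18 tested fate factors, 1 fell, RCOR2, a corepressor (-1.24 ± 0.14), with a median of 0.04 for the list. REST, the repressor of neuronal genes, did not pass (-0.33 ± 0.22, adjusted p = 0.314). Of 16 genes of Notch lateral inhibition, 7 fell, among them the receptors NOTCH3 (-1.24) and NOTCH1 (-0.49) and the target HEY2 (-1.18), and 3 rose: LFNG (0.41), HEY1 (0.50) and the ligand DLL1 (0.54). The median of the Notch list was -0.36, and DLL1 lost its call in 14 of the 20 fits that each left out 1 library. In WT alone 4 Notch genes fell and 2 rose (median -0.61), when 10.3% of all genes passed. In CF alone 1 fell and none rose (median -0.06), when 11.2% passed. No gene passed the test of a difference between genotypes in this change.

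Of 17 genes of granules and prohormone processing, 4 rose and 4 fell, with a median of 0.13. In WT alone none passed (10.3% of all genes), and in CF alone 3 rose and 1 fell (11.2% of all genes passed). PTPRN, a granule membrane protein, rose by 0.82 ± 0.17, BAIAP3, which acts in granule release, by 1.35 ± 0.26, QSOX1 by 0.94 ± 0.21 and the granule tether RAB27A by 0.53 ± 0.13. PCSK1N, an inhibitor of the convertase PCSK1, fell by 1.66 ± 0.47, and the processing enzymes CPE (-0.42) and PAM (-0.48) fell too, as did SCAMP5 (-1.34). With 1 library left out, CPE lost its call in 17 of 20 fits, PAM in 9, SCAMP5 in 8 and PCSK1N in 6. SCG3, a granin, at 0.20 ± 0.23 (adjusted p = 0.600) and PCSK1 at 0.75 ± 0.33 (adjusted p = 0.118) did not pass. The granule genes thus did not move in 1 direction.

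Of 20 genes of neuropeptides and amines, 2 rose and 2 fell, near the shares over all genes, with a median of 0.06. CALCA, the precursor of calcitonin and CGRP, a peptide of airway neuroendocrine cells, ran from 0.545 CPM (median 1.15) to 4.19 early and from 1.61 CPM (median 5.53) to 14.2 late, a rise of 2.05 ± 0.42 (adjusted p = 0.00374). It is also made by thyroid C cells and sensory neurons, and in WT day 80 replicate 2, the library with thyroid tissue, CALCA stood at 0.640 CPM. The part of C cells and sensory neurons in the rise of CALCA was not tested. MAOB, which breaks down amines, rose by 2.96 ± 0.34, and the opioid precursor PENK fell by 1.84 ± 0.42. The opposite movement of CALCA and GRP in late gestation is a description of 2 genes with different depth, since GRP had 2 to 48 counts per library. The genotypes behind the 2 movements also differed. In CF alone CALCA did not pass, while GRP passed in CF (-3.45) and not in WT (-0.20). Neither gene passed the test of a difference between genotypes in this change.

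Of 25 genes of vesicle release, 4 rose and 5 fell (11.5% and 12.7% of all genes), with a median of -0.19. The vesicle proteins SYT13 (-2.72) and SV2A (-3.01) and the fusion protein SNAP25 (-0.66) were among those that fell, and CPLX2 (3.51), SYNGR3 (0.85), SYN2 (1.26) and SYNPR (1.82) rose. Of 15 genes listed for the surface and cytoplasm of neuroendocrine cells, 6 fell and none rose, with a median of -0.38. These genes are not all particular to neuroendocrine cells, so the count is not one of cell markers. UCHL1, a ubiquitin hydrolase, ran from 26.3 to 118 CPM (median 62.1) early and from 2.91 to 29.6 CPM (median 10.1) late, a fall of 2.84 ± 0.38 (adjusted p = 0.000194). NCAM1, an adhesion protein, fell by 2.29 ± 0.42 (adjusted p = 0.00177), and SLIT2, SLIT3 and PIEZO2 fell by 1.80, 1.49 and 1.80. Neurons make UCHL1 and NCAM1 as well, and the ganglion markers NEFL (-3.20 ± 0.21), PRPH (-4.12 ± 0.36) and GAP43 (-3.39 ± 0.49) fell in the same comparison, with a median of -2.61 over the 17 neuron markers and -2.47 with genes at 0 in a group set at their bound of 3 counts. Of 9 Schwann cell markers 3 fell and 2 rose, and their summed level ran from 100.2 to 341 CPM early and from 214 to 464 CPM late. Among 12 airway epithelium markers 1 rose and none fell, though 11 had a positive fold change, with a median of 0.49. The part of nerve tissue in the falls of UCHL1 and NCAM1 was not tested.

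In the same average of CF against WT, 3 genes of the 15 lists were higher and 1 was lower. The lists held 212 found genes, and 0.766% of all tested genes passed. NPY, a neuropeptide, was higher in CF by 2.03 ± 0.41 (adjusted p = 0.0426), with a median of 1.85 CPM in CF and 0.286 CPM in WT. PTPRN was higher by 0.76 ± 0.15 (adjusted p = 0.0378), with medians of 9.71 and 5.96 CPM, and RCOR2 by 0.75 ± 0.13 (adjusted p = 0.0181), with medians of 32.4 and 23.6 CPM. NEFM, a neurofilament, was lower by -0.93 ± 0.18 (adjusted p = 0.0375). Most other ganglion neuron markers went the other way: 13 of the 17 lay higher in CF, though none of these passed. The median of that list was 0.70, against 0.0065 over all tested genes. The 4 calls rest near the threshold. Leaving out 1 library, RCOR2 lost its call in 8 of 20 fits, PTPRN in 16, NPY in 17 and NEFM in 17. None changed direction. All 4 also lost their calls, in the same direction, without the 4 libraries holding other tissue and with samples of a shared identifier summed, and PTPRN and NEFM lost theirs with a replicate block.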

How the data were processed

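The authors deposited unnormalised gene counts, in a WT and a CF table with the same genes. STAR 2.6 for alignment and featureCounts 1.6.3 (Subread) for counting are named per the submitters' processing notes. Per the labels' protocols, total RNA came from frozen tissue by acid-phenol extraction. The sources used here name no genome build, strand setting or read pairing, so reads of overlapping genes cannot be told apart. Of 8432 identifiers, 501 were given a symbol from the RefSeq table of ARS-UI_Ramb_v3.0, used for names only; no sequence was used here.

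Each sample was placed by its title. Replicates differed beyond counting noise (chi-square per gene 37.6 to 1662). edgeR 4.0.16 in R 4.3.3 (filterByExpr over the 10 groups, TMM, robust quasi-likelihood fit, 1 coefficient per group) tested 20097 genes, adjusted over all by Benjamini-Hochberg at 0.05; the SE is the log2 fold change over the root of F. log2 CPM used a prior count of 2, and correlations had 100000 permutations of the libraries across all groups, two-sided. The 9 members and the 15 lists (220 genes, 212 found) were chosen with earlier results of these data known. All members are named, with up to 4 called genes per list and direction, fixed key genes, and the 3 genes most like a member (mean log2 CPM of at least 0); a few genes that this takes are not reported here. Alternatives were 2 other filters, 2 other scalings, DESeq2 1.42.0, limma-voom (limma 3.58.1), a replicate block, the length slope as a covariate, samples of a shared identifier summed, no libraries with other tissue, and each library left out. The edgeR step was tested on simulated counts, with changed genes drawn from those with a mean of at least 1 CPM. It called 50.7% of 2-fold and 94.0% of 4-fold changes for CF against WT. For late against early gestation it called 49.3% and 89.6%. NEUROD1, GRP and SCG2 lay below that mean, so these shares do not cover them.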

Additional observations from a re-analysis of the deposited data

How the results depend on the processing

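Of the members' counts of calls, that for late against early gestation in WT (1 member) moved to 2 with library size alone, with the length slope, with limma-voom and with DESeq2, to 0 without the 4 libraries holding other tissue, and to between 0 and 4 with 1 library left out. Over both genotypes (4 members) it was 2 with samples of a shared identifier summed (INSM1 and SCG2), 3 without the 4 libraries (INSM1, SCG2 and DDC), 6 with limma-voom, 7 with DESeq2, and 3 to 6 with 1 library left out. In CF (3 members) it was 0 with those samples summed, 2 without the 4 libraries (SCG2 and DDC), 4 with the length slope (SCG5 added), and 1 to 3 with 1 library left out. For any age (3 members) it was 1 with samples summed, 5 with DESeq2 and 2 to 6 with 1 library left out. DESeq2 called 1 member, INSM1, in CF against WT at birth and in the test that the genotype difference varies with age, where edgeR called 0. These counts are given without the share of all genes called in each setting. They do not show a change particular to the members.

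Among the members, directions turned only for values past no threshold. For CF against WT over the ages, SCG5 was 0.0589 with library size alone, 0.115 with the length slope, 0.0736 without the libraries holding other tissue and 0.0405 with limma-voom, and ran from -0.18 to 0.21 with 1 library left out. CHGA was 0.13 with the length slope and ran from -0.37 to 0.26, CHGB was -0.30 without the libraries holding other tissue and ran from -0.0886 to 0.387, and DDC was -0.24 without those libraries. With 1 library left out, the late difference ran from -0.85 to 0.40 for GRP in WT and from -0.16 to 1.92 for NEUROD1. Outside the members, the falls of the muscle markers MYH2 and TNNC2 from early to late gestation had passed. Without the libraries holding other tissue, MYH2 turned to 0.56 and TNNC2 to 0.0295. The causes were not tested.

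The replicate numbers do not pair the samples: over 45 pairs of groups, same-numbered samples had deviations with correlations from -0.588 to 0.733 (median 0.0231). With a replicate block the members called were 4 for late against early gestation over both genotypes, 1 in WT, 3 in CF, 3 for any age and 0 in the CF comparisons, as without it. Without the block, the first 4 of these tests called 24.2%, 10.3%, 11.2% and 17.9% of all genes. The shares with the block are not given here, so these counts do not show a change particular to the members. Depth limits NEUROD1 and GRP most.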
